A study of Mus musculus with 4 samples.

Results

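The genes described are the MYC and MAX network, 10 genes for transcription factors that share MAX or the related protein MLX as a dimer partner. They were taken by name (Myc, Mycn, Max, Mxd1, Mxd3, Mxd4, Mxi1, Mnt, Mga and Mlx), and all 10 are among the 20599 gene symbols of the RNA-Seq data. Every one of them has a single gene entry, so no member was summed from several entries.

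RNA was measured in B cells sorted by flow cytometry from mice of the strain C57BL/6 with the genotype Wild-type. The B1a group holds 2 libraries of B1a cells from the peritoneal cavity, with a gate that included CD23- IgM+ CD5+, and the B2 group holds 2 libraries of follicular B2 cells from the spleen, with a gate that included IgD hi IgM lo CD21+. No cells were treated. The labels give an age of 4 weeks for all 4 libraries, whereas the study's methods describe older mice for the follicular cells, so cell type, tissue and possibly age cannot be told apart. The methods call these mice littermate controls of Dnmt3a-deficient animals and name 2 of them for each cell type, and the replicates were read as separate mice. The Dnmt3a-deficient libraries were not analysed here.

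MYC drives cell growth and proliferation, and it binds DNA only as a dimer with MAX, at the E-box, the letters CACGTG and close variants. The MXD proteins, MNT and MGA compete for the same partner and the same sites, and most of them recruit corepressors, so the balance among them sets the output of E-box genes. A parallel branch pairs MLX with the glucose-sensing factors MONDOA (Mlxip) and ChREBP (Mlxipl). In B cells, MYC is known to be induced by antigen receptor and T cell help, to be required for germinal centre formation, and to be activated by translocation in lymphomas and plasmacytomas.

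Several network genes carry the site that their own proteins bind. RefSeq promoter windows, from 250 bases before to 50 after a transcription start on GRCm38.p6, matched 9 of the 10 members (not Myc), with 11 windows in all. The letters CACGTG, which read the same on both strands, occurred in 4 of the 11 windows (36.4%), against 2349 of 32851 windows over all genes (7.15%). The 4 sites are printed here with 12 bases on either side, because they are the stretches through which a MAX dimer could meet a network gene near an annotated start. The E-box is in capitals, each sequence is on the strand of its gene, and the lines follow the order of the results.

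Max: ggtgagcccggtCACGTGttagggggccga

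Mxd4: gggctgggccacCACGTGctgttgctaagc

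Mnt: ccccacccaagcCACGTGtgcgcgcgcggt

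Mlx: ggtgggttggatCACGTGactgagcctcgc

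The Max site lies at chr12:76962234-76962263 on the minus strand, with the E-box starting 3 bases before the transcription start. The Mxd4 site lies at chr5:34187912-34187941 on the minus strand, 219 bases before the start. The Mnt site lies at chr11:74830789-74830818 on the plus strand, 123 bases before the start, and the Mlx site at chr11:101087238-101087267 on the plus strand, 40 bases before it. No E-box of these letters was in the windows of Mycn, Mxd1, Mxd3, Mxi1 or Mga. These distances are from the start on which the RefSeq window is built. Annotated genes can begin further upstream at another start, and against the outermost start of the gene entry the E-box begins 72 bases inside the gene for Max and 543 bases inside it for Mlx, 5 bases before it for Mnt, and 219 bases before it for Mxd4. A match is a description of the letters, and no binding was measured here.

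The libraries differed in depth and in how well replicates matched. Totals lay between 11032732 and 18588623 expected counts, the estimated reads per gene. Replicates correlated at r = 0.836 in B1a cells and 0.966 in B2 cells, across genes that are not independent, against 0.788 to 0.858 between cell types. Genes with 100 counts or more in a library and 3 or fewer in its replicate numbered 200 among the B1a libraries and 4 among the B2 libraries. The summed CPM (counts scaled to library size, with TMM factors) of 5 B1a markers was 1182 and 893 in B1a cells against 75.8 and 75.3 in B2 cells, and 4 B2 markers summed to 1668 and 1680 against 3008 and 3217, although Cxcr5 among the B2 markers was higher in B1a cells. Summed CPM of 9 macrophage markers was 223 and 254 in B1a cells against 63.4 and 74.7 in B2 cells. Lyz2 gave 127 and 136 of it in B1a cells. Of the 8 tested, 7 had a fold change above 0, and Csf1r overlapped (16.9 and 21.9 against 21.2 and 18.4). For 4 mast cell markers the sum was 41.1 and 13.4 against 1.47 and 0.941, and 5 erythroid markers reached 504 in B1a replicate 2 against 36.1 to 80.8 elsewhere. Sums of 8 T cell markers overlapped, at 108 and 71.6 against 89.0 and 86.7. For 6 plasma cell markers, mostly Irf4, the sum was 438 and 638 against 343 and 385. Neutrophil markers had 0 counts in B1a cells and summed to 1.21 and 6.64 in B2 cells. The part of other cells in the results below was not tested. In such bulk samples a larger share of cells that express a gene and more RNA per cell cannot be told apart.

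Myc was the only member whose difference between the cell types passed the test in the edgeR fit of all 4 libraries. Its CPM was 363 and 456 in the B1a libraries and 87.0 and 109 in the B2 libraries. Both B1a libraries lay well above both B2 libraries, and the fold difference was 4.17 (log2 fold change 2.06, SE 0.19, edgeR adjusted p = 0.0042, n = 2 and 2). The gene lies at chromosome 15, 61985341 to 61990361 on GRCm38.p6, and encodes the MYC protein itself. The difference stayed past the threshold of 0.05 in all 14 alternative analyses, with log2 fold changes between 1.81 and 2.23 and adjusted p-values between 1.18e-54 and 0.0244. The smallest p that an exact permutation test of 2 against 2 libraries can give is 0.33, so all p-values rest on the model fitted across genes. RNA level is not protein level, and MYC protein is known for fast turnover.

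Of the 10 members, 9 passed the filter on low counts and 1 was called, Myc, against 693 of all 12078 tested genes (5.74%). In the direction of B1a cells the background was 512 genes (4.24%), and in the direction of B2 cells, where no member was called, it was 181 genes (1.5%). In CPM, groups did not overlap for 3 of the 9 members with higher values in B1a cells (Myc, Mxd3 and Mxi1), against 25.3% of all tested genes. They did not overlap for 2 members with higher values in B2 cells (Max and Mlx), against 29.1%. These 9 members had a median log2 fold change of 0.21, beside -0.03 over all tested genes. The median of the members was 0.032 without B1a replicate 2, where all 10 were tested (all genes -0.13). On log2(TPM + 1) the median of 9 members was -0.060 (all genes -0.30).

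**Figure D1:**
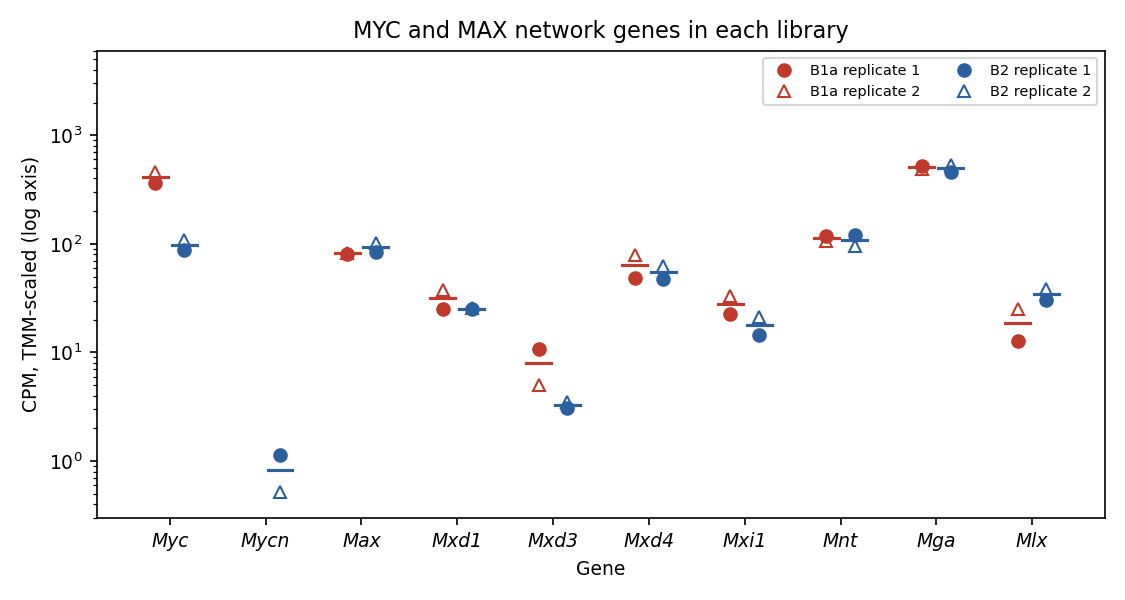
CPM (TMM-scaled, log axis) of the 10 network genes, with a point for each of the 4 libraries and a line at the mean of each cell type. The B1a libraries sit at 363 and 456 CPM for Myc, above the B2 libraries at 87.0 and 109, whereas for Mga, Mnt and Mxd4 the points of the 2 cell types interleave. Mycn had 0 counts in both B1a libraries, which a log axis cannot show.

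The paralog Mycn, which is mostly known from embryonic and neural tissue and from early B cell progenitors, was close to absent. The gene (chromosome 12, 12936093 to 12941836) had 0 counts in both B1a libraries and 13 and 10 counts in the B2 libraries, or 1.13 and 0.523 CPM. It did not pass the filter and was not tested. With 3 counts per library as the floor, its mean in B2 cells was at least 3.06-fold higher than the level that 0 counts allow in B1a cells, and the lower B2 library alone was at least 1.94-fold higher, bounds that cover counting error only. The third paralog, Mycl, also had 0 counts in both B1a libraries, and it had 12 and 26 counts in the B2 libraries (1.04 and 1.36 CPM). That is at least 4.45-fold higher in B2 cells by the same floor (3.86-fold for the lower B2 library), with an edgeR adjusted p of 0.206. Nearly all MYC family RNA of both cell types was therefore Myc.

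Max, the partner that MYC needs to bind the E-box and that the MXD proteins share, did not pass the test. At chromosome 12, 76937269 to 76962323, its CPM was 80.5 and 82.7 in B1a cells and 84.7 and 102 in B2 cells. The B1a values lay just under the lower B2 value, with B2 replicate 2 the highest. The log2 fold change was -0.19 (SE 0.19, adjusted p = 0.66), with a 95% interval from -0.66 to 0.28. This interval does not include a change of the size found for Myc.

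Among the MXD genes, which encode MAX partners that bind SIN3 corepressors and are often linked to differentiation and exit from the cell cycle, none passed the test. Mxd4 (chromosome 5, 34176580 to 34187710) had the most counts, at 48.8 and 78.3 CPM in B1a cells and 47.5 and 62.6 CPM in B2 cells. Its groups overlapped, and the log2 fold change was 0.21 (SE 0.31, 95% interval -0.56 to 0.97, adjusted p = 0.795). Mxd1 (chromosome 6, 86647044 to 86669234) was at 25.2 and 37.7 CPM in B1a cells against 25.0 and 25.6 in B2 cells. B1a replicate 2 was apart from the other 3 libraries, which were nearly equal, and the log2 fold change of 0.31 (SE 0.35, adjusted p = 0.703) became -0.01 without that library.

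In CPM, Mxi1 and Mxd3 were higher in both B1a libraries than in either B2 library without passing the test. In TPM the Mxi1 groups overlapped, at 11.02 and 15.5 in B1a cells against 7.86 and 11.97 in B2 cells. Mxi1 (chromosome 19, 53310128 to 53373293), also known as MXD2, was at 22.8 and 32.9 CPM in B1a cells and 14.5 and 21.4 CPM in B2 cells, so that the gap between the groups was small beside the spread within them. The log2 fold change was 0.63 (SE 0.42, 95% interval -0.40 to 1.66, adjusted p = 0.476). Mxd3 (chromosome 13, 55325170 to 55329900), the MXD member that is known to be expressed in S phase rather than in resting cells, was at 10.8 and 5.07 CPM in B1a cells and 3.07 and 3.53 CPM in B2 cells. The B1a libraries differed more from each other than the lower of them did from the B2 libraries. The log2 fold change was 1.26 (SE 0.96, 95% interval -1.09 to 3.61, adjusted p = 0.543), which leaves room for a change as large as that of Myc.

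Mnt and Mga, the large MAX partners that are expressed in most cells, had the smallest fold changes. Mnt (chromosome 11, 74830806 to 74845725), a repressor known to antagonise MYC in cycling as well as resting cells, was at 119 and 107 CPM in B1a cells against 120 and 95.9 CPM in B2 cells. The groups overlapped, with a log2 fold change of 0.07 (SE 0.19, 95% interval -0.39 to 0.53, adjusted p = 0.893). Mga (chromosome 2, 119872503 to 119970129), a scaffold of the polycomb complex PRC1.6 that also carries a T-box DNA-binding domain, was at 525 and 491 CPM in B1a cells and 459 and 538 CPM in B2 cells. It had the narrowest interval of the tested members, from -0.29 to 0.34 around a log2 fold change of 0.03 (SE 0.13, adjusted p = 0.939). The sign of the Mxd4, Mnt and Mga fold changes turned under other scalings, so no direction is read from the values printed.

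Mlx, the partner of MONDOA and ChREBP that also dimerises with MXD1, MXD4 and MNT, was lower in B1a cells without passing the test. The gene (chromosome 11, 101086707 to 101092207) was at 12.6 and 24.9 CPM in B1a cells and at 30.6 and 38.3 CPM in B2 cells. The groups did not overlap, but the B1a libraries differed more from each other than the higher of them did from the nearest B2 library, and the log2 fold change was -0.88 (SE 0.44, 95% interval -1.96 to 0.21, adjusted p = 0.34). Its partner Mlxip had far more counts, at 489 and 392.2 CPM in B1a cells against 375 and 390 CPM in B2 cells (log2 fold change 0.20, SE 0.14, adjusted p = 0.506). Mlxipl was scarce in both, at 2.33 and 4.80 CPM against 1.21 and 0.941 CPM (log2 fold change 1.71, SE 1.32, adjusted p = 0.549).

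**Figure D2:**
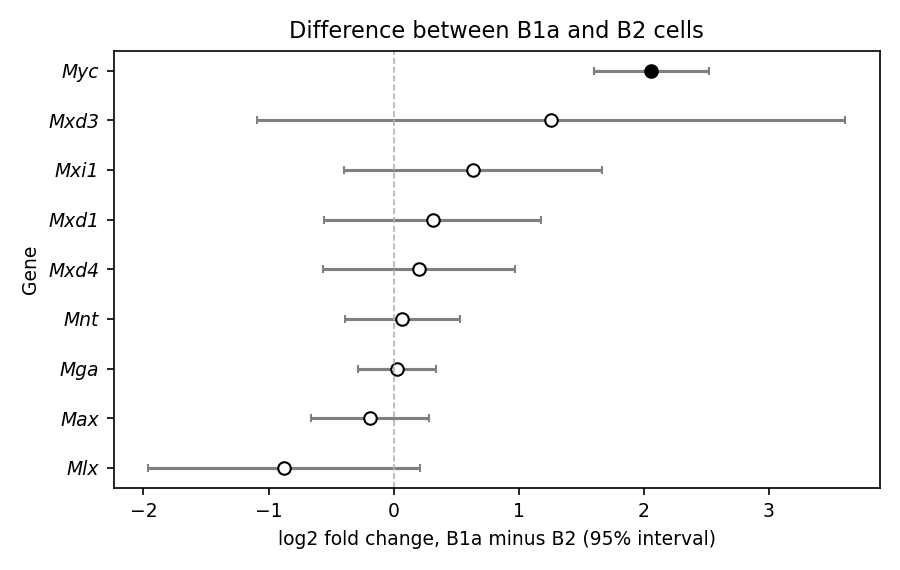
Log2 fold change between B1a and B2 cells for the 9 tested network genes (points) with 95% intervals from the edgeR fit (bars), where a filled point marks an adjusted p under 0.05. Only the interval of Myc, from 1.602 to 2.521, lies clear of 0 with the gene called, and the interval of Mxd3 is the widest.

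Leaving out a B1a library changed which members were called, because the spread is then estimated from the B2 libraries alone and the lone B1a library is assumed to vary like them. Without B1a replicate 1, Myc and Mxi1 were called (Mxi1 adjusted p = 0.0118), and 3953 of all genes were. Without B1a replicate 2, Myc, Mxd3 (adjusted p = 0.016) and Mlx (adjusted p = 9.06e-06) were called, and 6143 of all genes were.

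Levels between genes were compared in TPM, the transcript abundance that RSEM gives after dividing by transcript length. In B1a cells Myc was the most abundant member, at 361 and 442 TPM. It was followed by Mxd4 at 102 and 160 TPM, Max at 97.6 and 97.5 TPM, Mga at 87.4 and 79.7 TPM, and Mnt at 60.7 and 53.6 TPM. These ranked without overlap between neighbours. Mlx (17.7 and 30.9 TPM), Mxd1 (12.7 and 18.5 TPM), Mxd3 (20.3 and 9.31 TPM) and Mxi1 (11.02 and 15.5 TPM) followed, and neighbours in this lower part of the order overlapped. Mycn was at 0.

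In B2 cells no single member led. Mxd4 at 117 and 151 TPM, Max at 120 and 142 TPM, Myc at 102 and 125 TPM and Mga at 90.0 and 104 TPM overlapped, each with the next. Below them came Mnt (71.9 and 56.8 TPM), Mlx (46.7 and 53.8 TPM), Mxd1 (14.8 and 14.9 TPM), Mxi1 (7.86 and 11.97 TPM) and Mxd3 (6.79 and 7.71 TPM), with no overlap between neighbours. Mycn was last, at 1.21 and 0.55 TPM. Levels were also taken as TMM-scaled CPM divided by transcript length and brought to the TPM scale. The mean of a member in a cell type then moved by more than its SD in 4 cases and by no more than that in 16.

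Myc made up 46.8% and 48.7% of the summed TPM of the 10 members in the B1a libraries and 17.6% and 18.8% in the B2 libraries. The share of Max was 12.7% and 10.8% in B1a cells against 20.8% and 21.2% in B2 cells, and that of Mlx was 2.30% and 3.41% against 8.09% and 8.05%. The share of Mxd4 was 13.2% and 17.6% against 20.2% and 22.7%. Shares must sum to the whole, so a larger share of Myc lowers those of the others. The summed TPM of the other 9 members was 409 and 465 in B1a cells and 476 and 543 in B2 cells. In TPM their total was therefore not higher where Myc was. On that scale most genes shifted the same way, with a median log2 fold change of -0.30 over all genes on log2(TPM + 1), so a lower total is not particular to these members.

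Per TPM of Max there were 3.69 and 4.53 TPM of Myc in the B1a libraries, against 0.848 and 0.884 in the B2 libraries. Myc RNA thus exceeded Max RNA in B1a cells and lay just under it in B2 cells. The 6 genes for MAX-binding antagonists (Mxd1, Mxd3, Mxd4, Mxi1, Mnt and Mga) summed to 294 and 336 TPM in B1a cells and to 308 and 347 TPM in B2 cells, ranges that overlap. Myc reached 1.23 and 1.31 times that sum in B1a cells and 0.3298 and 0.361 times in B2 cells. In the other branch, Mlxip TPM per Mlx TPM was 12.3 and 5.42 in B1a cells against 4.04 and 3.60 in B2 cells, with the B1a replicates far apart. These ratios are of RNA and were not tested beyond the fits of the single genes.

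**Figure D3:**
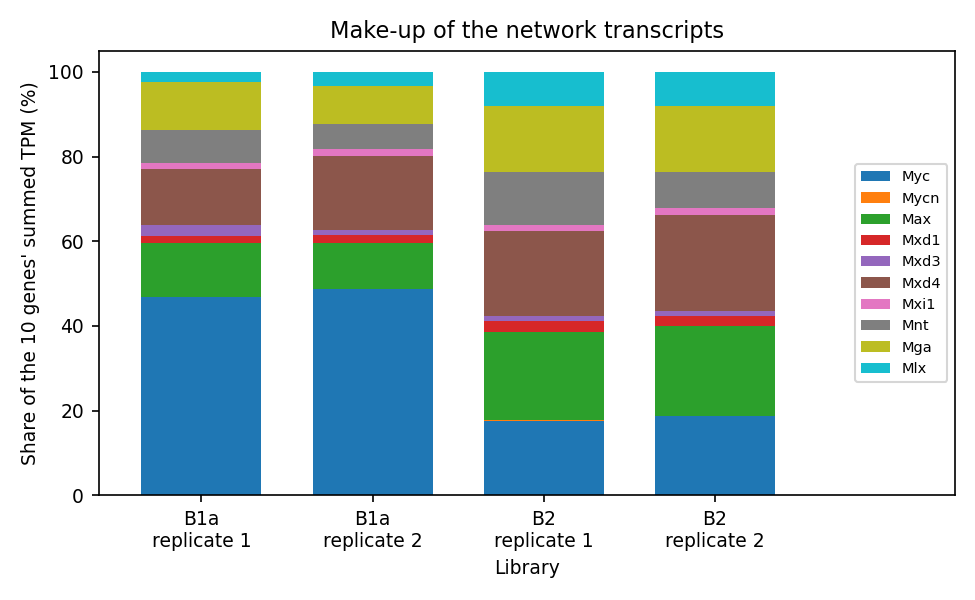
Share of the summed TPM of the 10 network genes (y axis, percent) held by each gene in each of the 4 libraries (stacked bars). Myc holds 46.8% and 48.7% in the B1a libraries and 17.6% and 18.8% in the B2 libraries, and Max and Mlx hold larger shares in the B2 libraries.

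The deposited transcript length of a gene is weighted by the estimated abundance of its isoforms, so it moves when isoform use moves. For Mlx it was 1723 and 1887 bases in the B1a libraries and 1851 and 1975 bases in the B2 libraries, the widest relative range among the members (14.6%), with overlapping groups. For Mxi1 it lay between 4843 and 5079 bases, with B2 replicate 1 the longest. The length of Max varied by 0.661% between libraries, that of Mga by 0.137% and that of Myc by 0.0421%, and the other members have 1 annotated transcript each. Mlxip, outside the 10, was at 5255 and 5342 bases in B1a cells and 5462 and 5463 bases in B2 cells, without overlap. Length estimates of genes with few counts are imprecise, and these were not tested.

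The other genes of the pathway were taken from 8 lists of partners, regulators and targets and 3 further factors (Mycl, Mlxip and Mlxipl), 133 genes in all, of which 129 were tested. Of these, 7 were higher in B1a cells (background 4.24%) and 0 were higher in B2 cells (background 1.5%) by edgeR, with 23 at an unadjusted p under 0.05. Over all tested genes 2525 had an unadjusted p under 0.05. These 129 genes had a median log2 fold change of -0.04.

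Components that MYC needs, and the corepressors of its antagonists, were not called, as held for most genes (5.74% called over all tested genes, of which 51.5% had a fold change below 0). Of 13 coactivators and partners 0 were called, with 1 at an unadjusted p under 0.05, and 11 of 13 fold changes were below 0 with a median of -0.23. Trrap, the scaffold through which MYC recruits histone acetyltransferases, was at 418 and 404 CPM in B1a cells against 481 and 468 in B2 cells (log2 fold change -0.21, SE 0.11, adjusted p = 0.355). Ep400, an ATPase of the TIP60 complex, was at 537 and 451 CPM against 587 and 571 (log2 fold change -0.23, SE 0.13, adjusted p = 0.39). Of 15 corepressors of the MXD proteins and MNT 0 were called, with 2 at an unadjusted p under 0.05, and 12 were below 0 with a median of -0.29. That median was -0.10 without B1a replicate 2, above the median of all genes there (-0.13). Ncor1 was at 623 and 594 CPM against 641 and 694 (log2 fold change -0.13, adjusted p = 0.577), and Arid4a at 231 and 193 CPM against 217 and 225 (log2 fold change -0.06, adjusted p = 0.884).

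The list of 15 genes that control MYC protein turnover had a median log2 fold change of 0.00 (-0.28 without B1a replicate 1 and 0.18 without B1a replicate 2). Fbxw7 was the called gene among them (5.74% called over all tested genes). It encodes the F-box protein that recognises phosphorylated MYC and leads it to degradation. Its CPM was 204 and 217 in B1a cells and 80.1 and 83.7 in B2 cells. Replicates were close and the groups far apart, with a log2 fold change of 1.36 (SE 0.15, adjusted p = 0.007), which stayed past the threshold in all 14 alternatives. RNA for MYC and for a factor of its degradation were thus both higher in B1a cells. Huwe1, another ubiquitin ligase, was at 1315 and 1268 CPM against 1057 and 1116 (log2 fold change 0.25, SE 0.10, adjusted p = 0.226). Set, an inhibitor of the phosphatase PP2A that destabilises MYC, was at 235 and 303 CPM against 324 and 313 (log2 fold change -0.24, SE 0.16, adjusted p = 0.465).

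Of 12 genes of the MGA complex PRC1.6, Tfdp1 was called (5.74% called over all tested genes), with a median log2 fold change of -0.02 over the list. Tfdp1 encodes DP1, which pairs with E2F factors in this complex and in cell cycle control. It was at 51.5 and 58.7 CPM in B1a cells and 17.8 and 21.3 CPM in B2 cells (log2 fold change 1.49, SE 0.28, adjusted p = 0.0401). The call was lost in 4 of 14 alternatives, both fits on TPM and those without either B2 library (adjusted p 0.0746 to 0.383). Hdac1, at 120 and 115 CPM against 127 and 121, and Cbx3, at 96.0 and 70.6 CPM against 74.1 and 78.7, were not called (adjusted p = 0.852 and 0.832).

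Targets of MYC were taken as separate lists. Of 32 nucleolar and ribosome biogenesis targets, a class that MYC is best known to raise in growing cells, 0 were called and 4 had an unadjusted p under 0.05. Over all tested genes 5.74% were called, and 2525 of 12078 had an unadjusted p under 0.05. Of their fold changes 16 were above 0 and 16 below, with a median of 0.00. That median was 0.096 without B1a replicate 1 and -0.21 without B1a replicate 2. Ncl, for nucleolin, was at 486 and 692 CPM in B1a cells and 620 and 602 CPM in B2 cells (log2 fold change -0.05, SE 0.18, adjusted p = 0.915). Npm1, for nucleophosmin, was at 292 and 487 CPM against 271 and 284 (log2 fold change 0.49, SE 0.24, adjusted p = 0.336). In both genes B1a replicate 2 was above replicate 1, and the B2 replicates lay close together.

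Of 32 metabolic and growth targets, 4 were called, all higher in B1a cells, with 8 at an unadjusted p under 0.05 and a median log2 fold change of 0.26. Over all tested genes 4.24% were called higher in B1a cells, and 2525 of 12078 had an unadjusted p under 0.05. That median was 0.059 without B1a replicate 2, and 0.012 on log2(TPM + 1), where the median of all genes was -0.30. Odc1, for ornithine decarboxylase, the rate-limiting enzyme of polyamine synthesis, was at 343 and 313 CPM in B1a cells against 73.1 and 66.5 in B2 cells (log2 fold change 2.23, SE 0.15, adjusted p = 0.00162). Ccnd2, for cyclin D2, was at 503 and 627 CPM against 116 and 155 (log2 fold change 2.06, SE 0.20, adjusted p = 0.00463). Both genes differed by about as much as Myc and were past the threshold in all 14 alternatives.

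The other called targets had smaller differences. Nme2, a nucleoside diphosphate kinase, was at 130 and 107 CPM in B1a cells against 53.9 and 55.7 in B2 cells (log2 fold change 1.11, SE 0.20, adjusted p = 0.0324). It lost the call without either B2 library (adjusted p = 0.189 without replicate 1 and 0.169 without replicate 2). Eno1, for the glycolytic enzyme enolase, was at 273 and 314 CPM against 183 and 163 (log2 fold change 0.76, SE 0.14, adjusted p = 0.0397). It lost the call in 5 of 14 alternatives, with upper quartile factors, on TPM and without either B2 library (adjusted p 0.0578 to 0.31). Eno1 was summed over 2 entries and has a near-identical copy, and Nme2 has a close paralog, so reads may have been divided between copies.

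Of 8 genes that MYC is known to repress, 5 were tested and 0 called (5.74% called over all tested genes). An unadjusted p under 0.05 was reached by 0 of them, against 2525 of all 12078 tested genes. Groups did not overlap in CPM for 2 with higher values in B1a cells (25.3% over all tested genes). The same held for 2 with higher values in B2 cells (29.1%). The median log2 fold change of the 5 was 0.12, beside -0.03 over all tested genes. The median of so few genes moved with single libraries, to -0.23 without B1a replicate 1 and 0.40 without B1a replicate 2. It was 1.25 without B2 replicate 1 and 1.07 without B2 replicate 2, fits in which 6 of the genes were tested rather than 5. Cdkn1b, for the cell cycle inhibitor p27, was at 167 and 109 CPM against 129 and 125 (log2 fold change 0.12, SE 0.23, adjusted p = 0.846), and Ndrg1 was at 3.05 and 6.56 CPM against 16.0 and 12.7 (log2 fold change -1.57, SE 0.74, adjusted p = 0.305).

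In the branch of MLX, 5 of 6 targets were tested and Txnip was called (4.24% called higher in B1a cells over all tested genes). These 5 targets had a median log2 fold change of 0.75, with 3 above 0 and 2 below, beside -0.03 over all tested genes. Without a filter, where all 6 were tested, the median was 0.14 (all genes -0.11). Txnip encodes an inhibitor of glucose uptake and is the best known target of MONDOA. It was at 825 and 1002 CPM in B1a cells and 549 and 538 CPM in B2 cells (log2 fold change 0.75, SE 0.13, adjusted p = 0.0301). The call was lost in both fits on TPM (adjusted p = 0.0985 and 0.111). G6pc3, at 65.8 and 51.9 CPM against 31.0 and 25.6, gave a log2 fold change of 1.06 (SE 0.28, adjusted p = 0.1). It was past the threshold in 5 of 14 alternatives, with DESeq2, a weight for each cell type, the replicate block and without either B1a library (adjusted p 9.27e-07 to 0.041). Tkfc, at 31.7 and 16.4 CPM against 35.8 and 30.7, gave -0.47 (SE 0.42, adjusted p = 0.612).

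**Figure D4:**
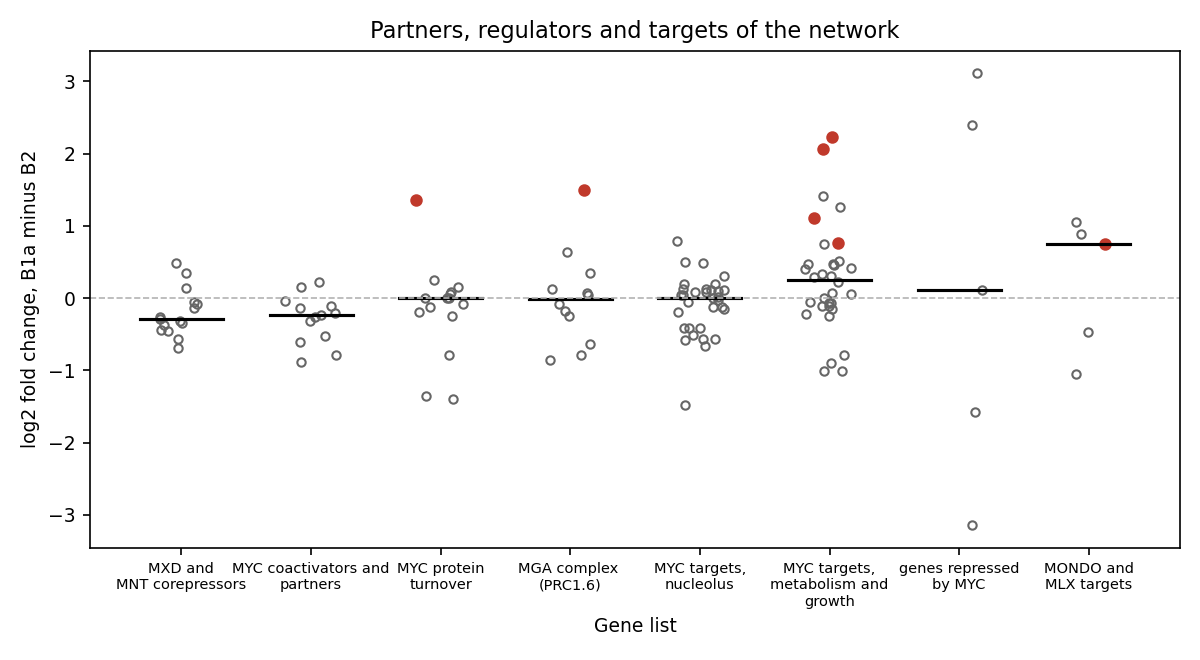
Log2 fold change between B1a and B2 cells for the tested genes of the 8 lists (points), with the called genes filled and the median of each list as a line; points are spread sideways for legibility. The 32 metabolic and growth targets hold 4 called genes and have a median of 0.26, whereas the 32 nucleolar targets hold 0 and have a median of 0.00.

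The E-box letters were more frequent in the promoter windows of both target lists than over all genes. They occurred in 7 of 26 nucleolar targets with a window (26.9%) and in 9 of 29 metabolic and growth targets (31.0%), against 2187 of 27025 genes (8.09%). In the genes repressed by MYC they occurred in 0 of 7 and in the targets of the MLX branch in 2 of 5 (40.0%), too few genes to compare. In the lists of partners and regulators the share ran from 8.33% (coactivators) to 16.7% (protein turnover). Of the 7 called genes of the lists, 6 had a window (not Ccnd2) and Tfdp1 held the letters in 1 of them. Such short windows miss sites further away, so nothing follows for the other genes. The 2 target lists hold genes chosen as MYC targets, and MYC binds the E-box, so a higher share may follow from that choice. The background held all genes with a window, whether expressed here or not.

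**Figure D5:**
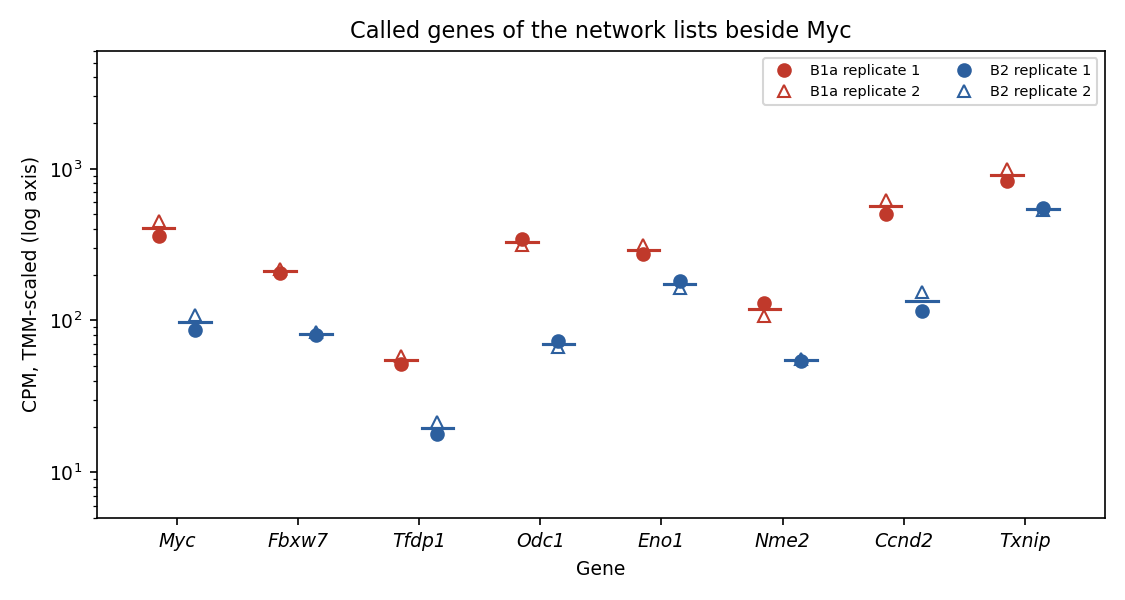
CPM (TMM-scaled, log axis) of Myc and of the 7 called genes of the lists, with a point for each library and a line at the mean of each cell type. In each of these genes both B1a libraries lie above both B2 libraries, with the widest gaps for Odc1, Myc and Ccnd2.

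Cycling cells, in which MYC is known to be active, were compared through 12 markers. Their summed CPM was 1212 and 1022 in B1a cells and 1116 and 1076 in B2 cells, and most of it was Tyms, at 817 to 985 CPM. Of the 11 tested, Mki67, the gene for the proliferation antigen Ki-67, was called (5.74% called over all tested genes). Its CPM was 105 and 87.5 in B1a cells against 23.4 and 40.5 in B2 cells. Top2a, for a topoisomerase of dividing cells, was higher in both B1a libraries without passing the test, at 36.9 and 34.2 CPM against 14.7 and 24.0 (adjusted p = 0.271). Birc5, at 69.8 and 30.8 CPM against 45.7 and 49.6, Cenpa, at 21.0 and 28.3 against 26.5 and 28.8, and Plk1, at 23.9 and 5.85 against 8.30 and 7.37, overlapped between the groups. The other 6 (Ccnb1, Ccnb2, Cdk1, Aurkb, Bub1 and Rrm2) were at or under 9.53 CPM in all 4 libraries. Among them, Ccnb1 was at 0 and 0.180 CPM in B1a cells against 0.954 and 1.52 in B2 cells. Cdk1 was at 0.896 and 0.270 CPM against 1.83 and 1.52. Both were thus higher in both B2 libraries, at few counts and without passing the test (edgeR adjusted p = 0.394 and 0.666). Whether the difference in Myc comes with a difference in cycling cells was not tested.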

How the data were processed

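RNA-Seq of 2 B1a and 2 B2 libraries was used. Per the labels, total RNA was made into libraries with a Kapa RNA HyperPrep kit with RiboErase, and the submitters' processing notes name bcl2fastq, RSEM 1.2.29 and mm10. The study's methods name RefSeq annotation, another Kapa kit, another RSEM version and EBSeq, which was not run here. The labels' kit removes ribosomal RNA whereas the study's text speaks of selecting poly(A) RNA, and the sources do not settle which was used, which could affect levels compared between genes. The authors deposited an expected count per gene entry, in which RSEM divides reads that fit several entries, and TPM, scaled by transcript length and library. A further deposited signal column, RSEM's posterior SD of the count, was at most 7.24 counts for any member (for Mxd3 at most 3.42% of its count).

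Counts of entries with the same symbol were added and rounded. Genes were filtered with filterByExpr, scaled with TMM factors and compared by the quasi-likelihood test of edgeR 4.0.16 in R 4.3.3, with Benjamini-Hochberg adjustment over 12078 genes and a threshold of 0.05. Standard errors were derived from the F statistic. TMM factors lay between 0.963 and 1.05. The floor was 3 counts. Alternatives were DESeq2 1.42.0, upper quartile factors, limma-voom (limma 3.58.1) with and without a weight for each cell type, a filter of at least 10 counts, no filter, limma on log2(TPM + 1) and log2(TPM + 0.1), unsummed entries, a replicate block, and each library left out. The tests of edgeR, DESeq2 and limma-voom (with and without weights) were also checked on simulated counts in which 200 genes were changed. These changes were large and the spread between replicates was capped, so the setting was easier than the data. The fits on TPM, the replicate block and the fits with a library left out were not checked this way.

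The members and lists were chosen with earlier results of these data known. Values are given for all members, Mycl, Mlxip and Mlxipl and, from each list, up to 4 called genes whose mean reached 10 CPM, or, where fewer than 2 were called, the 2 with the highest CPM. Tkfc is under its older symbol in the files. Cycling and contamination markers named singly were chosen after their values were seen.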

Additional observations from a re-analysis of the deposited data

How the results depend on the processing

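The call of Myc held in all 14 alternatives. The number of members called was 1 throughout except with a library left out, where it was 1 to 3 (1 to 2 higher in B1a cells and 0 to 1 higher in B2 cells), both changes coming from the fits without a B1a library. Of the other network genes, 7 were higher in B1a cells, 4 on either TPM scale and 4 to 22 with a library left out. In B2 cells 0 were higher, 1 with a weight for each cell type, 1 on log2(TPM + 1), 3 with the replicate block and 0 to 27 with a library left out. The cause was not tested.

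The median log2 fold change of all genes was -0.03 in the reported fit, -0.30 on log2(TPM + 1) and -0.32 on log2(TPM + 0.1). Small fold changes turned sign there, none of them called. On log2(TPM + 1) and log2(TPM + 0.1), respectively, they were -0.060 and -0.061 for Mxd4, -0.16 and -0.16 for Mnt, -0.21 and -0.21 for Mga, -0.00056 and -0.00062 for Mlxip, -0.13 and -0.13 for Cbx3, and -0.15 and -0.15 for Cdkn1b. With upper quartile factors they were -0.00054 for Mnt and -0.042 for Mga. With a library left out, log2 fold changes ranged from -0.0079 to 0.57 for Mxd1, -0.18 to 0.50 for Mxd4, -0.087 to 0.24 for Mnt, -0.085 to 0.14 for Mga, -0.19 to 0.063 for Arid4a, -0.12 to 0.33 for Cbx3, -0.33 to 0.18 for Ncl and -0.23 to 0.40 for Cdkn1b.

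Over all genes, 693 were called in the reported fit, 1562 by DESeq2, 1415 with a weight for each cell type, 1141 without a filter, 499 on log2(TPM + 1) (266 higher in B1a cells and 233 in B2 cells, against 512 and 181), 359 on log2(TPM + 0.1), and 539 and 559 without B2 replicate 1 and 2. With the replicate block 1481 were called (889 and 592). The replicate numbers name no shared animal, deviations of libraries with the same number correlated at r = -0.035, and with 2 pairs the numbers were not taken to pair the libraries. With 2 libraries a group and a common biological coefficient of variation of 0.507, the intervals of Mxd1, Mxd3, Mxi1 and Mlx include log2 changes of 1 in size.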
